A study of Sus scrofa with 24 samples.

Results

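Genes of the contractile machinery of smooth muscle were described in the utero-tubal junction (UTJ) of sows, the muscular passage between uterine horn and oviduct where spermatozoa are stored after mating. A list of 45 gene symbols was looked up in the annotation of the array, each as the single symbol of a probe set, and of several probe sets for one gene the brightest on average was taken. A probe set was found for 29 of the 45 genes, among 12365 genes with a symbol of their own on the array. No probe set with a single symbol was found for 16 genes, among them MYH11, CNN2, LMOD1, DES, SYNM, MYOCD, PDLIM7, FLNA, LPP, CSRP1, SGCD, PPP1R12A, PPP1R12B, PPP1R14A and ROCK1, so smooth muscle myosin, the intermediate filaments and the subunits of myosin phosphatase were not measured here. The list itself used no measured value of these arrays, but it was chosen with earlier results of these data known.

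RNA from UTJ tissue of weaned Swedish Landrace sows was hybridised to Porcine Gene 1.0 ST arrays (Affymetrix), of which the data hold 8 arrays labelled mated (natural mating with a boar), 8 labelled SP-infused (50 ml of sperm-free seminal plasma, SP) and 8 labelled control (50 ml of the semen extender Beltsville Thawing Solution). All sows were in oestrus and the tissue was removed 24 h after treatment, although one passage of the study's design calls control females unmated and not inseminated. Each group had 4 sows, each giving its left and its right UTJ. The sources used here do not say which arrays come from the same sow, so arrays were counted as independent, which makes the p-values too small. Values are log2 intensities, and array medians lay between 5.75 and 5.99. The SD over probe sets was 1.91 on control array 1 and 2.04 to 2.14 on the other 23 arrays, and values without control array 1 stand beside the results for SMTN, PDLIM3, CASQ2 and the second component below. Every direction given here rests on the deposited group labels, whose match to the sows could not be checked.

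Smooth muscle shortens when calcium enters the cytoplasm, binds calmodulin and activates myosin light chain kinase, which phosphorylates the regulatory light chain so that myosin pulls on actin filaments. Calponin, caldesmon and transgelin sit on those filaments, dense plaques of vinculin and talin tie them to integrins in the membrane, and cyclic GMP-dependent kinase and myosin phosphatase bring relaxation. Serum response factor with its cofactor myocardin switches most of these genes on together. In the UTJ the muscle coat surrounds a narrow folded lumen and takes part in the passage of spermatozoa. The tissue was taken whole, so fewer muscle cells and less RNA per muscle cell cannot be told apart in these data.

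No difference between groups that was larger than the spread of the arrays was found for any of the 29 genes in 3 comparisons. With limma and Benjamini-Hochberg adjustment over all 27558 probe sets, 0 of 29 members passed an adjusted p under 0.05 in mated against control, SP-infused against control and mated against SP-infused arrays, beside 0% of all genes in each comparison. At an unadjusted p under 0.05 the members also numbered 0 in each comparison, where 10.2%, 4.54% and 3.31% of the 12365 genes reached it. An exact two-sided permutation test of the array labels for each member and comparison gave 0 of 87 p-values under 0.05, the lowest being 0.141. The lowest adjusted p of a member was 0.635 in mated against control, 0.891 in SP-infused against control and 0.998 in mated against SP-infused arrays. The median 95% interval of a member reached 0.42 on the log2 scale to either side of its estimate, and the standard error ran from 0.09 for ROCK2 to 0.47 for CASQ2, so the size of a difference that could be detected varied from gene to gene.

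**Figure D1:**
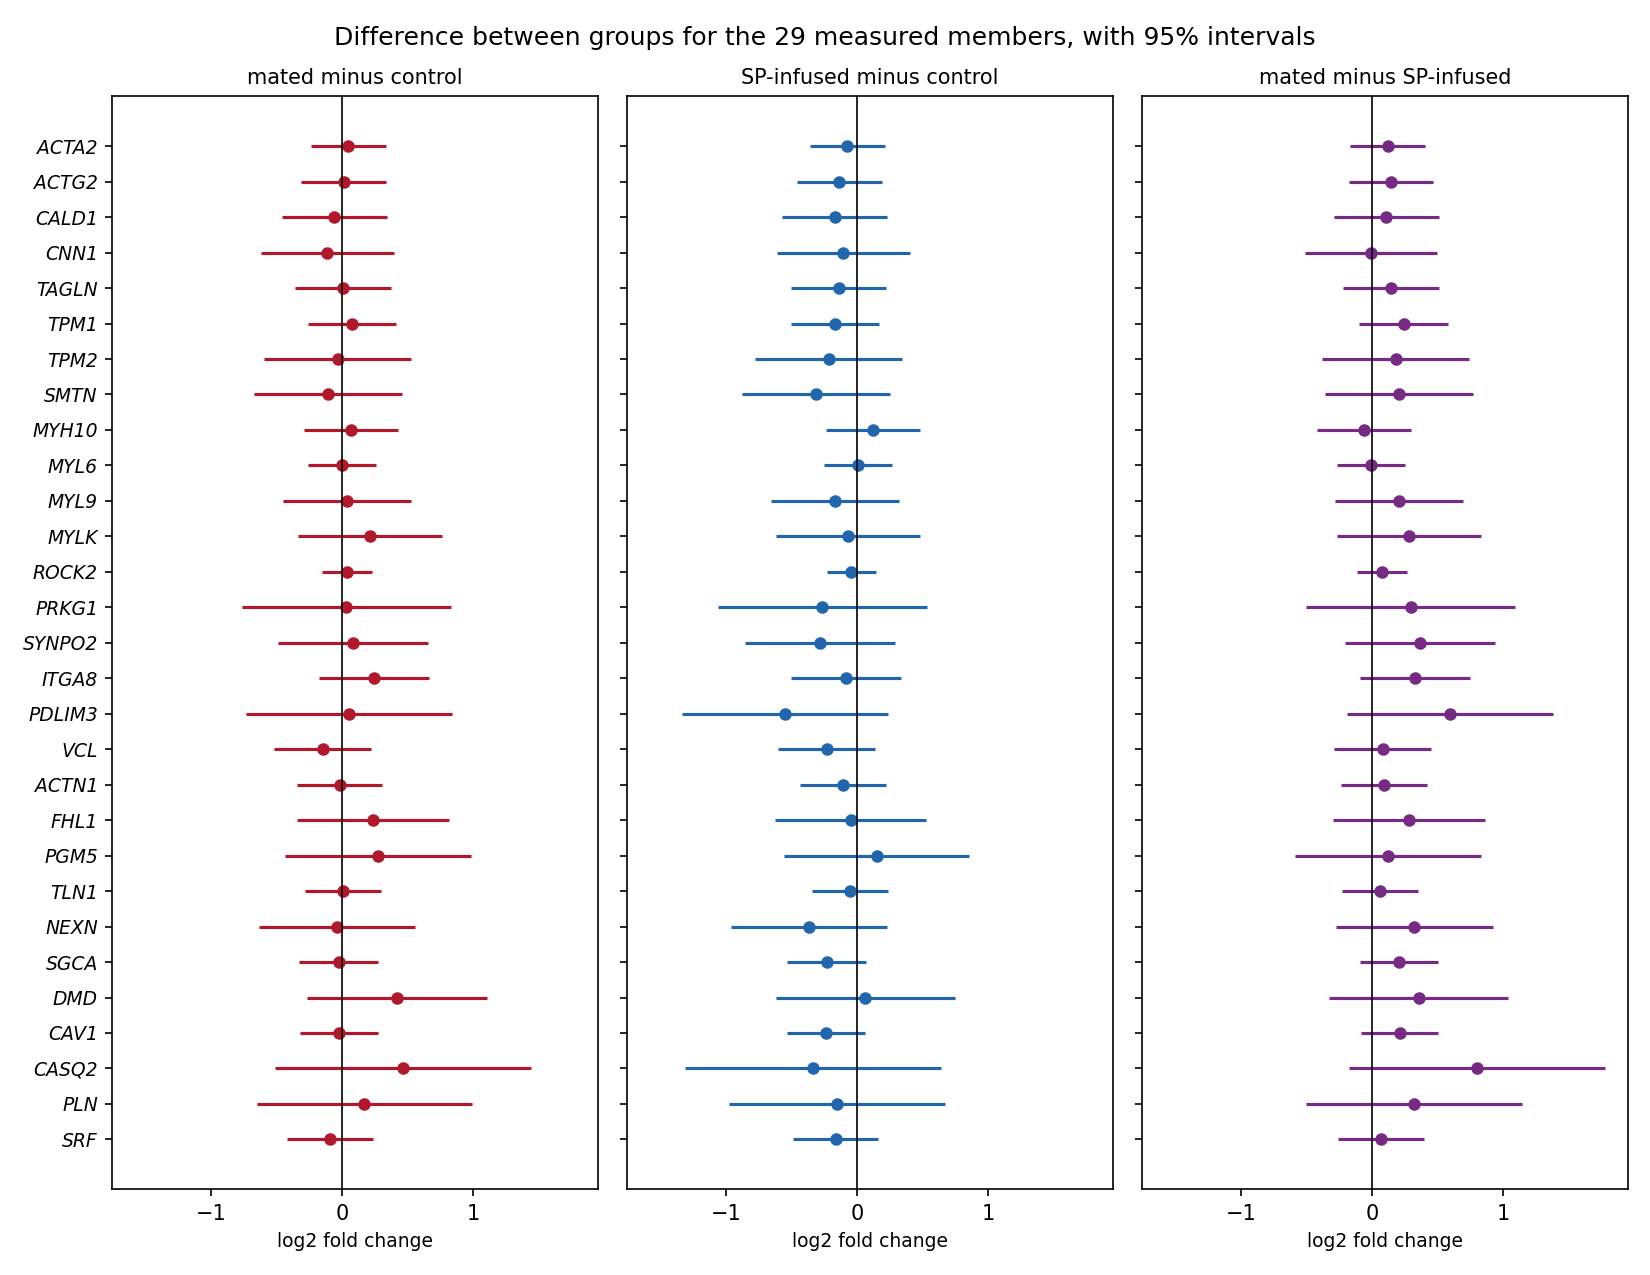
Log2 fold change of each of the 29 measured members (points) with its 95% interval (lines) in mated minus control, SP-infused minus control and mated minus SP-infused arrays, from a limma fit over 24 arrays. Every interval includes 0, and the widest belong to CASQ2, PLN and PRKG1.

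In mated against control arrays the median log2 fold change of the members was 0.03, with 18 above 0 and 11 below, and that of all genes was −0.04. In SP-infused against control arrays the median was −0.15, with 4 above 0 and 25 below, beside −0.03 for all genes. In mated against SP-infused arrays it was 0.20, with 26 above 0 and 3 below, beside −0.01 for all genes. The 3 comparisons share their arrays, and the members move together from array to array, so these counts are not 29 separate observations. Which SP-infused arrays were in the fit set the size of the last 2 medians. Without SP-infused array 6 they were −0.06 and 0.10, and without SP-infused array 5 they were −0.22 and 0.27. The median in mated against control arrays was −0.04 without mated array 6, 0.08 without control array 7 and 0.06 without control array 1.

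Among the thin filament genes, ACTA2 and ACTG2 encode the vascular and the enteric type of smooth muscle actin. ACTA2 (probe set 15233371) had log2 values of 11.76, 11.98 and 12.30 (lowest, median and highest) in mated arrays, 11.30, 11.95 and 12.33 in SP-infused and 11.73, 11.85 and 12.33 in control arrays. The ranges of the 3 groups overlapped, and the 2 lowest arrays of all were SP-infused. Its mean was 12.01 ± 0.19 in mated arrays, 11.89 ± 0.38 in SP-infused arrays and 11.96 ± 0.24 in control arrays (SD, n = 8 each), and the largest log2 fold change was 0.12 in mated against SP-infused arrays (95% interval −0.16 to 0.41, adjusted p = 0.998). ACTG2 (15275920) ran from 12.01 over a median of 12.27 to 12.80 in mated, from 11.64 over 12.30 to 12.65 in SP-infused and from 11.82 over 12.35 to 12.62 in control arrays. The highest ACTG2 value was on mated array 6 and the lowest on SP-infused array 7, and the group means of 12.31 ± 0.24, 12.16 ± 0.42 and 12.30 ± 0.29 in mated, SP-infused and control arrays lay within 1 SD of each other.

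CNN1 encodes calponin 1, which restrains the myosin ATPase, and TAGLN encodes transgelin, an actin-bundling protein that is abundant in smooth muscle. CNN1 (15263946) had 10.53, 11.03 and 11.97 (lowest, median and highest) in mated, 10.38, 11.30 and 11.75 in SP-infused and 10.53, 11.33 and 11.79 in control arrays. TAGLN (15330452) had 11.65, 11.78 and 12.36 in mated, 11.10, 11.77 and 12.30 in SP-infused and 11.32, 11.92 and 12.23 in control arrays. For both genes mated arrays 4 and 6 were at the top and SP-infused arrays 6 and 7 at the bottom, with the groups overlapping. The log2 fold changes of CNN1 were −0.11 in mated and −0.10 in SP-infused against control arrays, and −0.01 in mated against SP-infused arrays, where the adjusted p was 0.999. TAGLN differed by 0.01 in mated against control, by −0.14 in SP-infused against control and by 0.15 in mated against SP-infused arrays (standard error 0.18 for each). The other thin filament genes were the tropomyosins TPM1 and TPM2, caldesmon (CALD1) and smoothelin (SMTN), a marker of contractile smooth muscle cells, and all 8 thin filament genes were below 0 in SP-infused against control arrays, between −0.31 for SMTN (−0.17 without control array 1) and −0.07 for ACTA2.

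The motor side was represented by MYLK, MYL9, MYL6 and MYH10. MYLK, myosin light chain kinase, is the enzyme through which calcium starts contraction. Its probe set (15222255) read 9.96, 10.38 and 11.25 (lowest, median and highest) in mated, 9.29, 10.37 and 10.99 in SP-infused and 9.66, 10.29 and 10.97 in control arrays. The mated and SP-infused medians were close while their lower ends were not, and 3 SP-infused arrays lay below every array of the other groups. Means were 10.52 ± 0.46 in mated arrays, 10.24 ± 0.77 in SP-infused arrays and 10.31 ± 0.40 in control arrays, with a log2 fold change of 0.28 in mated against SP-infused arrays (95% interval −0.26 to 0.83, adjusted p = 0.998) and of 0.22 in mated against control arrays (−0.33 to 0.76, adjusted p = 0.77). A second MYLK probe set was dim, with a mean of 5.32, and followed the first with r = 0.863 within groups. Control arrays averaged 5.36 on this second probe set, SP-infused arrays 5.31 and mated arrays 5.30, so mated arrays were not higher there. When the MYLK probe sets were averaged, the log2 fold change of mated against control arrays was 0.08. That of mated against SP-infused arrays was then 0.14.

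MYL6, the essential light chain that muscle and other cells share, was at 11.51 ± 0.21 in mated arrays, 11.52 ± 0.33 in SP-infused arrays and 11.51 ± 0.20 in control arrays, the flattest member across groups. MYL9, the regulatory light chain that MYLK phosphorylates, averaged 10.67 ± 0.49 in mated arrays, 10.47 ± 0.59 in SP-infused arrays and 10.63 ± 0.41 in control arrays. For MYL6 and for MYL9 the array carries a second probe set with identical values on all arrays, which was not counted again. MYH10, the heavy chain of non-muscle myosin IIB, was the only myosin heavy chain of the list with a probe set, and its lowest value of all, 7.90, was on control array 1.

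PRKG1, the cyclic GMP-dependent kinase through which nitric oxide relaxes smooth muscle, and ROCK2, a kinase that inhibits myosin phosphatase, differed in their spread. PRKG1 ran from 6.44 over a median of 7.77 to 8.66 in mated, from 6.31 over 7.81 to 8.77 in SP-infused and from 6.71 over 7.86 to 8.88 in control arrays, and its largest log2 fold change was 0.30 in mated against SP-infused arrays (standard error 0.39). ROCK2 stayed between 8.72 and 9.42 on all arrays. The SD of ROCK2 within groups, 0.17, was the lowest of the 29 members.

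In the dense plaques and adhesion sites, ITGA8 encodes the integrin alpha 8 chain and SYNPO2 encodes synaptopodin 2, an actin-bundling protein. ITGA8 (15200953) had 9.25, 9.85 and 10.60 (lowest, median and highest) in mated, 8.79, 9.79 and 10.07 in SP-infused and 9.39, 9.71 and 10.11 in control arrays. On 3 mated arrays ITGA8 was above every SP-infused and control array, 3 SP-infused arrays were below every mated and control array, and the rest overlapped. Its log2 fold change was 0.33 in mated against SP-infused arrays (95% interval −0.09 to 0.75, adjusted p = 0.998, unadjusted p = 0.115) and 0.25 in mated against control arrays (−0.17 to 0.67, adjusted p = 0.651).

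SYNPO2 (15324000) had 9.56, 9.97 and 10.70 in mated, 8.62, 9.92 and 10.60 in SP-infused and 9.27, 9.98 and 10.67 in control arrays; the medians lay close together. The group means of SYNPO2 were 10.09 ± 0.46 in mated and 9.72 ± 0.81 in SP-infused arrays, and the log2 fold change in mated against SP-infused arrays was 0.37 with a standard error of 0.28, and 0.21 without SP-infused array 6. PDLIM3, an actinin-associated LIM protein, varied more than 98.0% of all genes within groups and had the second largest difference of the list. It averaged 9.40 ± 0.75 in mated arrays, 8.80 ± 0.95 in SP-infused arrays and 9.35 ± 0.75 in control arrays, which gave −0.55 in SP-infused against control (95% interval −1.33 to 0.24, adjusted p = 0.891) and 0.60 in mated against SP-infused arrays (−0.19 to 1.38, adjusted p = 0.998). Without control array 1, the highest array for PDLIM3, the difference of SP-infused from control arrays was −0.36. The remaining dense plaque genes were VCL (vinculin), ACTN1 (actinin), TLN1 (talin), FHL1, NEXN and PGM5, and in mated against SP-infused arrays all 9 genes of the group were above 0, between 0.06 for TLN1 and 0.60 for PDLIM3.

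At the membrane, DMD encodes dystrophin, SGCA a sarcoglycan of the dystrophin complex and CAV1 the coat protein of caveolae. DMD averaged 9.74 ± 0.57 in mated arrays, 9.39 ± 0.91 in SP-infused arrays and 9.32 ± 0.61 in control arrays, and with 0.42 in mated against control arrays (95% interval −0.26 to 1.11) it had the lowest adjusted p of the members there. CAV1 averaged 10.83 ± 0.28 in mated arrays, 10.62 ± 0.38 in SP-infused arrays and 10.85 ± 0.20 in control arrays. In SP-infused against control arrays CAV1 was at −0.24 (95% interval −0.53 to 0.06, adjusted p = 0.891), with an exact permutation p of 0.141. The share of the variance of CAV1 over 24 arrays that lay between groups, 13.1%, was the highest of the members, whose median was 4.39% beside 7.39% over all genes.

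The calcium store genes varied most. CASQ2, calsequestrin 2, binds calcium inside the sarcoplasmic reticulum, and PLN, phospholamban, restrains the pump that refills it. CASQ2 (15281348) had 6.96, 8.31 and 10.10 (lowest, median and highest) in mated, 6.22, 7.43 and 9.40 in SP-infused and 7.30, 8.08 and 9.78 in control arrays. The range from lowest to highest within each group was wider than the distance between group means, and the within-group SD of 1.02 was above that of 99.2% of all genes. Means were 8.64 ± 1.06 in mated arrays, 7.84 ± 1.21 in SP-infused arrays and 8.17 ± 0.74 in control arrays, and the log2 fold change of 0.80 in mated against SP-infused arrays (95% interval −0.18 to 1.78, adjusted p = 0.998, exact permutation p = 0.18) was the largest of any member in any comparison. Against control the differences were 0.47 in mated and −0.33 in SP-infused arrays, and without control array 1 they were 0.70 and −0.10. PLN (15192818) had 8.01, 8.99 and 10.27 in mated, 7.39, 8.86 and 10.07 in SP-infused and 7.60, 8.83 and 10.21 in control arrays, with log2 fold changes of 0.17, −0.15 and 0.32 in mated against control, SP-infused against control and mated against SP-infused arrays (standard error 0.40 for each). Without SP-infused array 6 the last 2 were 0.05 and 0.12.

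SRF, serum response factor, was the only transcription factor of the list with a probe set. SRF (15309913) had 7.34, 7.86 and 8.55 (lowest, median and highest) in mated, 7.28, 7.92 and 8.28 in SP-infused and 7.48, 8.08 and 8.21 in control arrays. The highest SRF value was on mated array 4 and the lowest on SP-infused array 7, and the groups overlapped. Its log2 fold change was −0.09 in mated and −0.16 in SP-infused against control arrays and 0.07 in mated against SP-infused arrays, with a standard error of 0.16 for each.

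**Figure D2:**
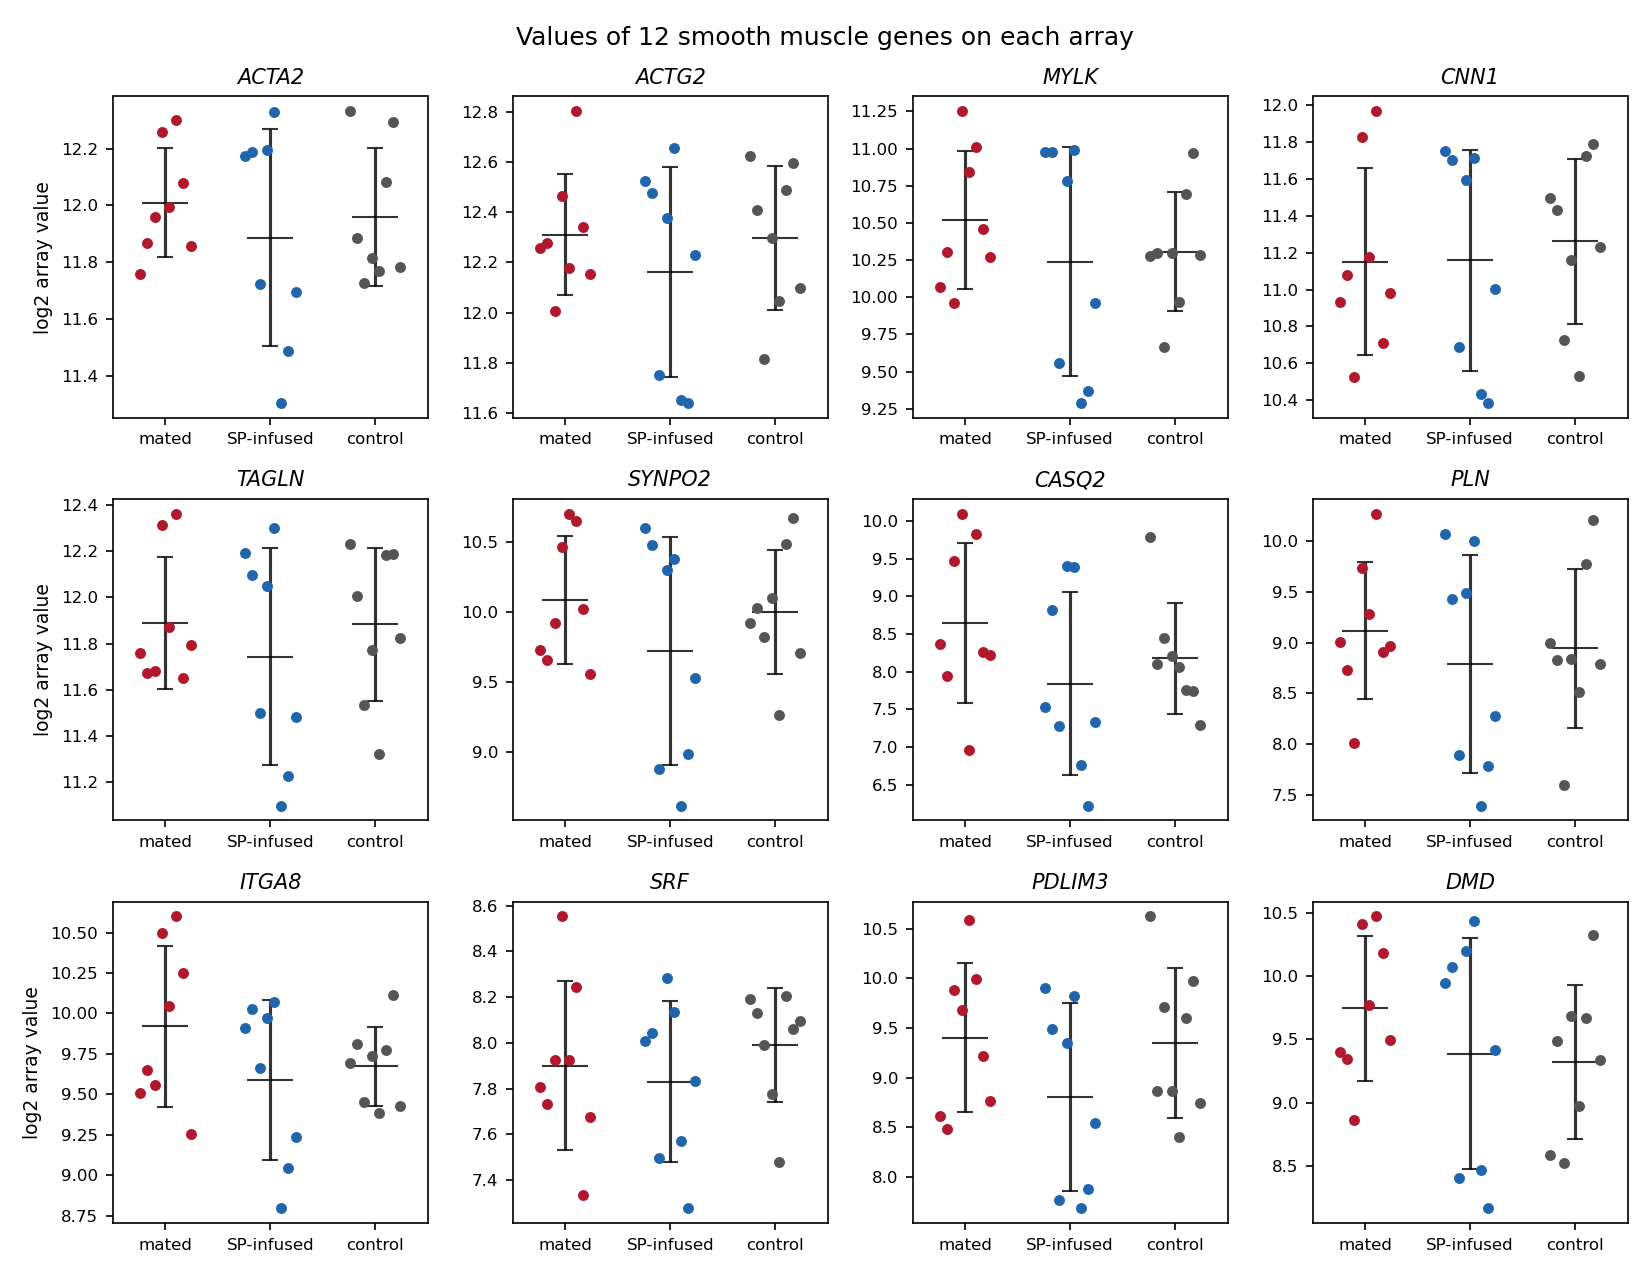
Log2 values of 12 members on each array (points, in order of replicate number) in mated, SP-infused and control arrays, with the group mean and SD (horizontal bar and error bar, n = 8). Within the SP-infused group, 4 arrays are high and 3 or 4 are low for most of these genes, and no gene separates the groups.

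The variation of the members lay between arrays of the same group. After the group means were taken out, the median Pearson r over the 406 pairs of members was 0.784, with 339 pairs (83.5%) above 0.5 and 2 pairs below 0. Over pairs of all genes the median was 0.01 and 6.26% were above 0.5. These are descriptions over 24 arrays that share a normalization and, in part, sows. The highest pair was TAGLN and CNN1, at 0.961, and the lowest was SGCA and ROCK2, at −0.05. One component held 73.8% of the within-group variance of the 29 genes. The within-group SD had a median of 0.43 over the members and of 0.25 over all genes.

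A level for each array was taken as the median deviation, over the 8 measured genes of a core list of 12 (ACTA2, ACTG2, MYLK, CNN1, TAGLN, SYNPO2, CASQ2 and PLN), from each gene's mean over 24 arrays. It averaged 0.10 ± 0.34 in mated arrays, −0.12 ± 0.64 in SP-infused arrays and 0.02 ± 0.34 in control arrays (SD, n = 8 each). SP-infused arrays 1, 2, 4 and 5 were at 0.46, 0.50, 0.38 and 0.49, while SP-infused arrays 3, 6, 7 and 8 were at −0.65, −0.91, −0.88 and −0.38. No SP-infused array lay between −0.38 and 0.38. Mated arrays 4 and 6 were at 0.58 and 0.68 and the other mated arrays between −0.20 and 0.06, and control arrays ran from −0.41 to 0.47. All 29 members were above their own mean on mated array 4, on mated array 6 and on SP-infused array 5, and 0 of 29 were above it on SP-infused array 6. The lowest value of 14 members was on SP-infused array 6 and that of 11 members on SP-infused array 7.

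**Figure D3:**
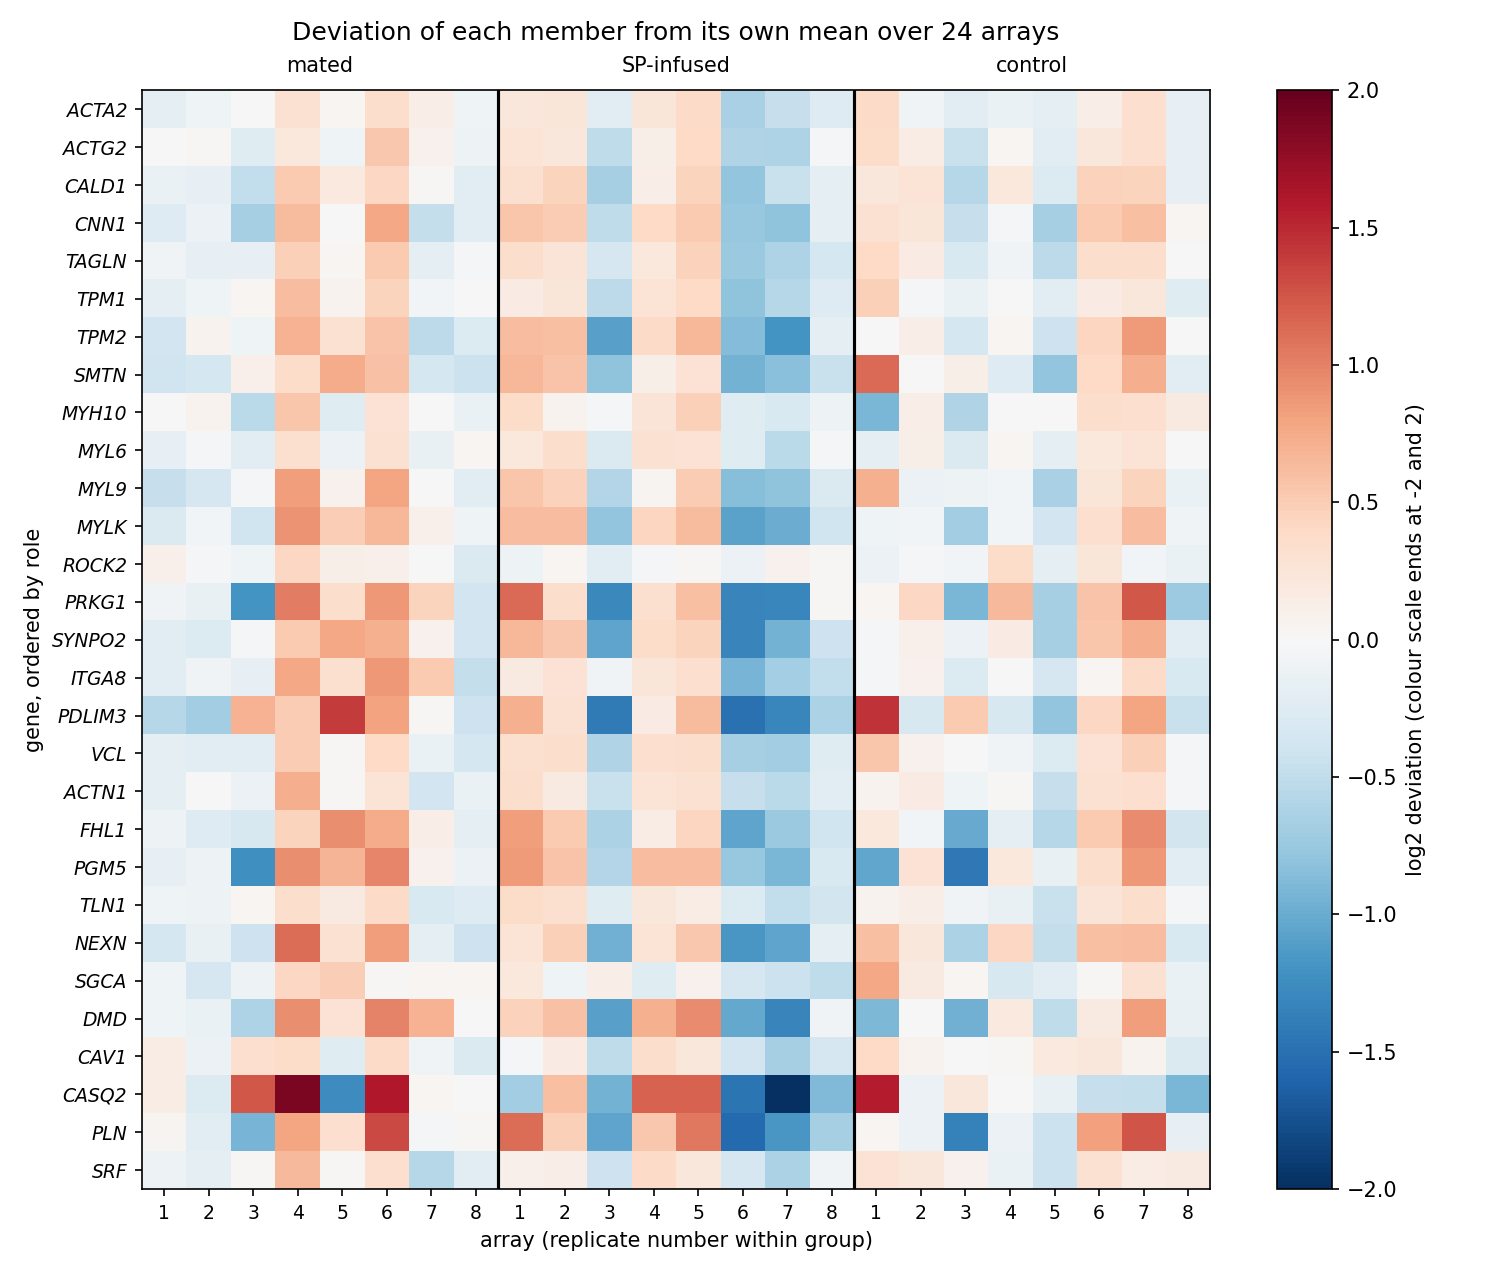
Log2 deviation of each of the 29 members (rows, by role) from its own mean over 24 arrays, for mated, SP-infused and control arrays (columns, by replicate number). Whole columns are high or low together, as on mated arrays 4 and 6 and SP-infused arrays 6 and 7, and control arrays 1 and 3 and mated array 3 hold high and low genes side by side.

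The correlation of a member with the median of the other core genes, within groups, ran from 0.345 for ROCK2 to 0.964 for VCL, with a median of 0.886. It was above 0.9 for 12 members and above 0.8 for 21. ITGA8 was at 0.846 and SRF at 0.796. The members that followed the core least, after ROCK2, were SGCA (0.499), MYH10 (0.561), CASQ2 (0.579) and CAV1 (0.737). SGCA was also the dimmest member, with values of 4.74 to 6.03.

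A second pattern stood beside the common one. On the scaled values of 24 arrays the first component held 73.5% of the variance, with the same sign for all 29 members, and the second held 9.29%. SGCA, PDLIM3, CASQ2 and SMTN had the largest positive weights on the second component and MYH10, PGM5 and DMD the largest negative ones. Control array 1, mated array 3 and control array 3 had scores of 5.59, 3.22 and 3.18 on it, and no other array exceeded 0.47. PGM5, a phosphoglucomutase-like protein of adherens junctions, was at its 3 lowest values there, 9.02, 8.83 and 8.63, which are deviations of −1.05, −1.23 and −1.43 from its mean. PDLIM3 deviated by 1.44, 0.70 and 0.53 from its own mean on the same arrays.

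Over 24 arrays PDLIM3 followed SMTN with r = 0.943 and PGM5 with r = 0.354, and PGM5 followed DMD with r = 0.905 and MYH10 with r = 0.842. Without control array 1, PDLIM3 followed SMTN with r = 0.935 and PGM5 with r = 0.531. The second component then held 5.82% of the variance, with MYH10 and PGM5 still at its negative end and CASQ2 and PDLIM3 at its positive end, while the weight of SGCA was 0.15 in place of 0.32 and that of DMD −0.15 in place of −0.25. CASQ2 departed from both on mated array 5, with a deviation of −1.26 where PDLIM3 had 1.40. Over 24 arrays CASQ2 followed CAV1 with r = 0.874 and PGM5 with r = 0.21.

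**Figure D4:**
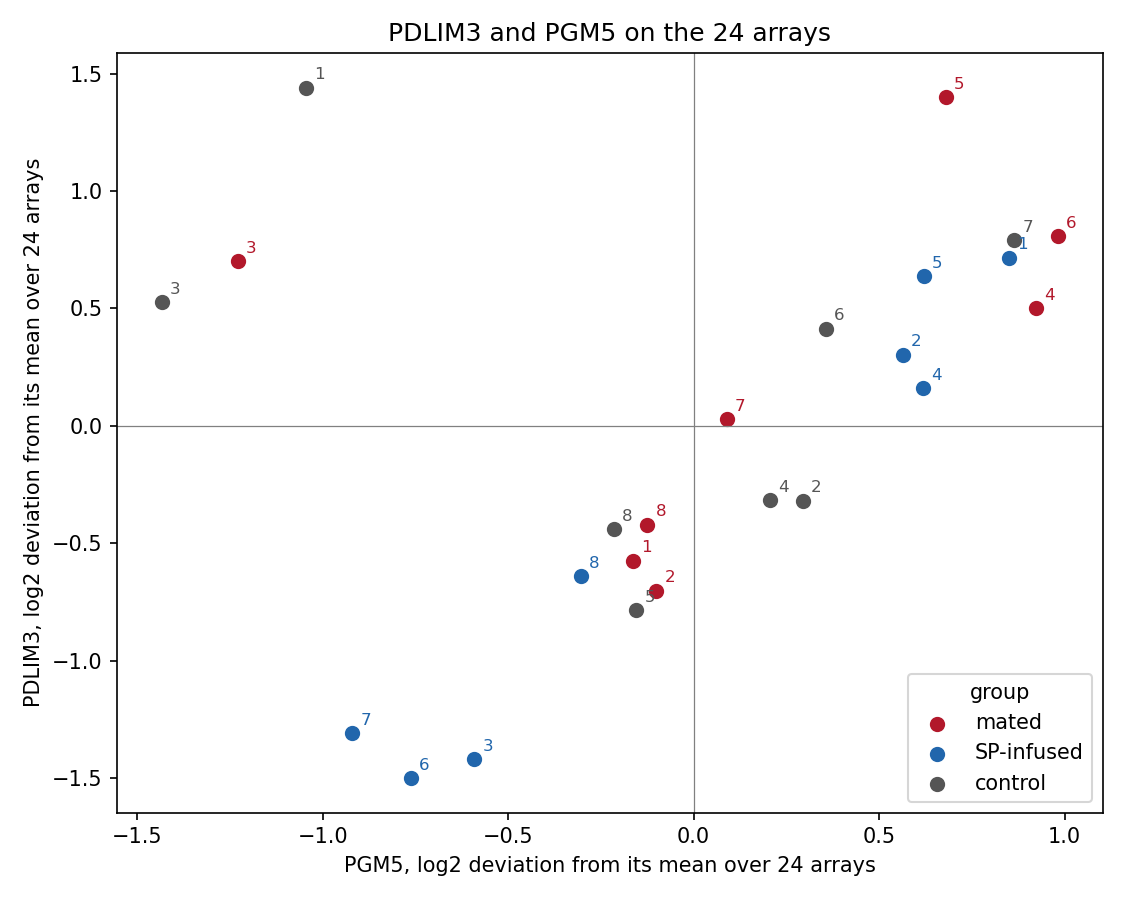
Deviation of PDLIM3 (vertical axis) and PGM5 (horizontal axis) from their means over 24 arrays, on the log2 scale, with the replicate number beside each point, for mated, SP-infused and control arrays. On 21 arrays the genes run along a common diagonal, and control arrays 1 and 3 and mated array 3 sit apart at low PGM5 and high PDLIM3.

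Genes of some other cell types ran against the core contractile level, and those of others followed it closely or weakly. The correlations of a list with the core given from here on used deviations from the group means, in place of the means over 24 arrays. The median deviation of 12 epithelial genes (of 16 listed) ran against it, with a Pearson r of −0.784 and a Spearman coefficient of −0.794 over the 24 arrays, −0.814 without the 2 arrays farthest from the median of the core level, and −0.926, −0.851 and −0.742 within mated, SP-infused and control arrays. Of the 12 genes, 11 had an r below −0.5 with the core, from −0.772 for ESRP1, a splicing factor of epithelial cells, and the exception was OVGP1, the oviductal glycoprotein, at −0.21. The epithelial level ranged from −1.48 to 0.61 in mated, from −0.83 to 0.86 in SP-infused and from −1.04 to 0.72 in control arrays, and no epithelial gene had a mean log2 value below 5. Mated arrays 6 and 4, highest for the core, were at −1.48 and −1.04. The part of tissue make-up in the group differences above was not tested, and with whole tissue the share of muscle and the RNA per muscle cell cannot be told apart.

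**Figure D5:**
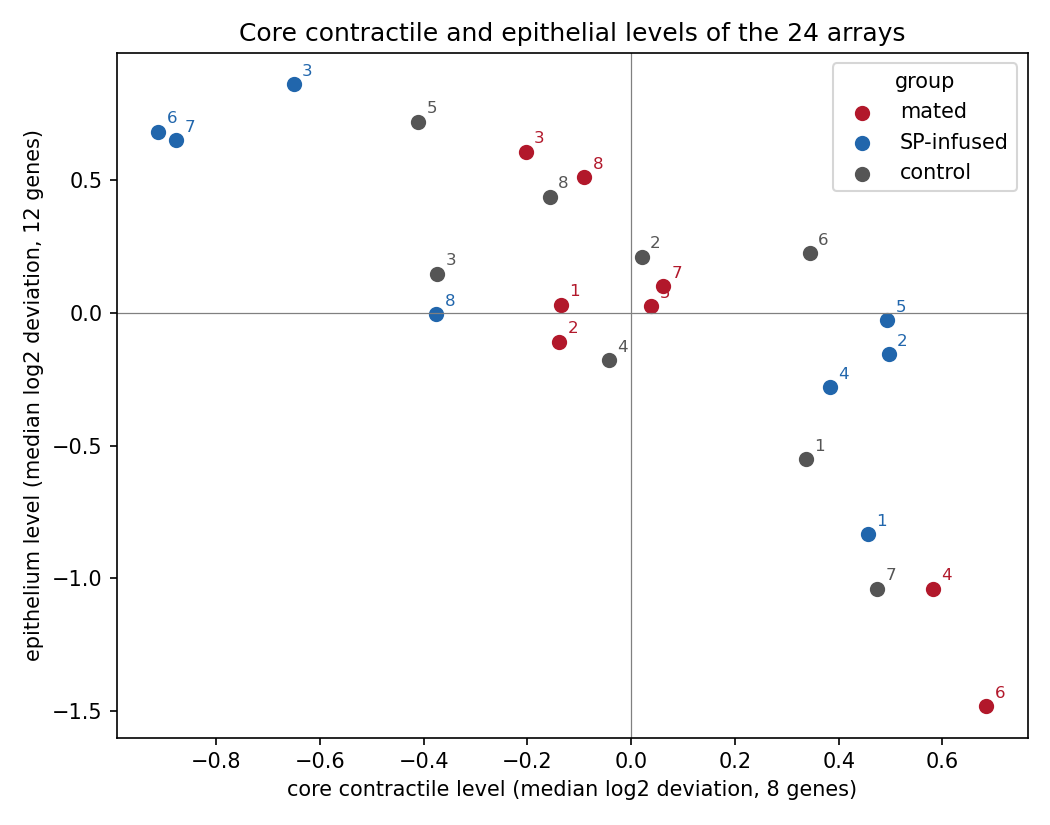
Core contractile level (horizontal axis, median log2 deviation of 8 genes) against epithelium level (vertical axis, median log2 deviation of 12 genes) for mated, SP-infused and control arrays, with the replicate number beside each point. Arrays with a high contractile level have a low epithelium level in all 3 groups. With deviations taken from the group means, r was −0.784 over the 24 arrays.

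The leukocyte level also ran against the core (r = −0.617, Spearman coefficient −0.734, 8 genes), most closely in SP-infused arrays at −0.99, with −0.549 in mated and −0.317 in control arrays. Of the 8 leukocyte genes 4 had an r below −0.5 with the core and 2 had a mean below 5, while CD14 was at 0.149. The level of ciliated cell genes had r = −0.433 with the core. Those of fibroblasts (0.139), mesothelium (0.323, 3 of 4 genes with a mean below 5) and endothelium (0.389) followed the core weakly. Genes of pericytes, contractile cells around small vessels, followed it with r = 0.836 as a list. Of the 8 measured pericyte genes 4 had an r above 0.5 with the core, MCAM the highest at 0.915, while PDGFRB was at −0.07 and RGS5 at 0.412, and 2 had a mean below 5. The level of nerve and glia genes, of which 5 were measured, followed the core with r = 0.649, with 0.302 in mated arrays, 0.836 in SP-infused arrays and 0.695 in control arrays. Of these 5 genes 3 had an r above 0.5 with the core and 3 had a mean below 5, and STMN2 was at −0.335. Genes of striated muscle were checked as well: 16 of 27 listed had a probe set, 11 of these had a mean below 5, and the level of the list followed the core with r = 0.691. ACTC1, cardiac actin, followed the core most closely of them, with r = 0.774.

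With the core level of each array as a covariate in the fit, an alternative chosen after the data were seen, the median log2 fold change of the 21 members outside the core was −0.05 in mated against control, −0.03 in SP-infused against control and −0.03 in mated against SP-infused arrays, against 0.01, −0.16 and 0.20 without it. Of the 21, 1 reached an unadjusted p under 0.05 in mated against control arrays, where 12.7% of genes did, and 0 did in SP-infused against control and in mated against SP-infused arrays, where 4.84% and 4.31% of genes did. The one was VCL, at −0.21 with an adjusted p of 0.206 (limma). The covariate is made of muscle genes, so a difference common to all of them is taken out with it.

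Other parts of the muscle cell were read from lists of the pathway. Of 21 genes of calcium and ion handling 15 had a probe set, and their level followed the core with r = 0.895. KCNJ8 (r = 0.857) and ABCC9 (r = 0.616) were also in the pericyte list, so these lists were not separate observations. None of the 15 passed the adjusted threshold in limma, and the count at an unadjusted p under 0.05 was 0, 0 and 1 in mated against control, SP-infused against control and mated against SP-infused arrays, where 10.2%, 4.54% and 3.31% of all genes reached it. The one was RYR2, a calcium release channel of the store, at 0.39 in mated against SP-infused arrays (standard error 0.16, adjusted p = 0.998). KCNMB1, the subunit that makes the large potassium channel of smooth muscle sensitive to calcium, followed the core most closely of the list, with r = 0.941, and its log2 fold change was −0.41 in SP-infused against control arrays. SLN, sarcolipin, ran against the core with r = −0.508.

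Receptors known from uterine and oviductal muscle numbered 14 of 20 with a probe set, 5 of them with a mean below 5, and 0 passed the adjusted threshold. HRH1, the histamine receptor that contracts smooth muscle, was at 0.51 in mated against control arrays (standard error 0.13, adjusted p = 0.268) and at 0.36 in mated against SP-infused arrays (adjusted p = 0.998), with unadjusted p-values of 0.000705 and 0.0125. ADRA1A, an alpha-adrenergic receptor, was at −0.54 in SP-infused against control arrays and at 0.51 in mated against SP-infused arrays (standard error 0.22 each, adjusted p = 0.891 and 0.998). ADRA1A was one of the 5 dim receptors, with a mean of 4.33 over the 24 arrays. EDNRA, the endothelin receptor of muscle, followed the core with r = 0.719 and AGTR1, an angiotensin receptor, with r = −0.01.

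Of the relaxing cyclic nucleotide pathway 11 of 14 genes were measured. PDE3B, a phosphodiesterase, was at 0.47 in mated against SP-infused arrays (standard error 0.13, adjusted p = 0.998, unadjusted p = 0.0016) and at −0.29 in SP-infused against control arrays, and NOS3, endothelial nitric oxide synthase, was at −0.26 in SP-infused against control arrays. Of the cofactors of SRF and regulators of muscle fate 14 of 21 were measured, and TEAD1 (0.22) and GATA6 (0.44) had unadjusted p-values of 0.0216 and 0.0401 in mated against SP-infused arrays. ELK1, a ternary complex factor that binds SRF, followed the core with r = 0.838, and KLF5, a Kruppel-like factor, ran against it with r = −0.668. None of these genes passed the adjusted threshold.

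Outside the 45 genes, the likeness of each of 12336 genes to the core level was measured as Pearson r over the deviations of 24 arrays from their group means. It was above 0.8 for 125 genes (1.01%) and below −0.8 for 20. The 10 highest were MSRB3 (0.958), SPARCL1, EHHADH, PLEKHO1, KCNMB1, INPP5A, ITGB1, SSPN, PRUNE2 and EHBP1L1 (0.935). ITGB1 encodes the integrin beta 1 chain, the partner of the alpha 8 chain, and SSPN encodes sarcospan, a membrane protein of the dystrophin complex. The 10 lowest were ERAP1 (−0.847), RAB19, CDC42SE1, ACSL5, RAB3IP, ZNF608, RASGRP1, CDS1, ZPBP2 and RAB25 (−0.814), of which RAB25 encodes a small GTPase of epithelial cells. The gene most like the core, MSRB3, a methionine sulfoxide reductase, had log2 fold changes of 0.20, −0.11 and 0.31 in mated against control, SP-infused against control and mated against SP-infused arrays.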

How the data were processed

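UTJ tissue of sows was measured on 24 one-colour arrays, 8 mated, 8 SP-infused and 8 control by their labels, with the array as the unit. The authors made the deposited log2 intensities with RMA and compared groups with limma, with versions not given in the sources used here. RMA adjusts background, quantile-normalizes arrays and summarises probe sets, so a value is relative to the rest of its array; the deposited distributions were close but not identical. Arrays have no read depth, and their number limits the precision. The values were used as deposited. Of 27558 probe sets 13327 carried 1 symbol in the annotation, 357 carried several and 13874 had none, and all 29 measured members matched the pig gene table by number and symbol.

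A mean per group was fitted over 24 arrays (R 4.3.3, limma 3.58.1, empirical Bayes), with Benjamini-Hochberg adjustment over all probe sets and a threshold of 0.05. Exact permutation tests used all 12870 splits of 8 against 8 arrays (scipy 1.17.1). The fit was tested on simulated data made by shuffling the arrays, which could not show what arrays of the same sow do to the p-values. Alternatives were dropping probe sets with a mean below 5, separate fits of 16 arrays per comparison, equal medians, cyclic loess, a trended robust prior, array weights, the mean of a gene's probe sets, a replicate block and leaving out each array.

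One listed gene without a probe set is not reported here by name. The members, lists and tests were chosen with earlier results of these data known. Named in full were the measured core genes, ITGA8, SRF and any member at an unadjusted p under 0.05. MYOCD, also chosen, had no probe set. Of pathway lists up to 4 genes with the lowest p were named, and so were the 10 genes most and least like the core. Genes of cell type lists were named by r only, and their group differences were left out. None of these passed the adjusted threshold. MFAP5 of the fibroblast list was at 0.96 in mated against control arrays (limma, adjusted p = 0.31). At an unadjusted limma p under 0.05 there, 3 of 8 endothelial genes were higher and 3 of 16 striated muscle genes lower, beside 10.2% of all genes in either direction. These 3 striated muscle genes were dim, with means of 4.28, 4.31 and 4.16 over the 24 arrays. PDLIM3, DMD, CAV1, PRKG1, MYL6, MYL9, PGM5 and genes named for their r were added after their values were seen.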

Additional observations from a re-analysis of the deposited data

Results flagged for a closer look

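Of the 87 combinations of a member and a group, 1 held an array far from the others of its group. CASQ2 on control array 1 was at 9.78, where the next highest control array was at 8.44, and the gap was 0.539 of the range of the group, above Dixon's 95% critical value for a group of 8. Chance flags about 1 in 20 groups. Control array 1 also had the lowest SD over probe sets, 1.91, and the highest value of all 24 arrays for 6 members, ACTA2, SMTN, PDLIM3, VCL, SGCA and CAV1. Without it the CASQ2 difference was 0.70 in mated against control and −0.10 in SP-infused against control arrays. Its part in these values beyond that was not tested.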

How the results depend on the processing

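The 87 member results (29 genes in 3 comparisons) were recomputed under 8 other settings and with each of the 24 arrays left out, 2784 values in all, and 0 passed the adjusted threshold, the lowest adjusted p being 0.502. The sign changed in 156 of them, in 36 of the 87 results. The count of members at an unadjusted p under 0.05 stayed at 0 in mated against control arrays under these. With the core level as a covariate, added after the data were seen, it was 1 of 21 there (VCL, adjusted p = 0.206). Leaving out 1 array moved it between 0 and 1 in SP-infused against control arrays (CAV1, without SP-infused array 4) and between 0 and 1 in mated against SP-infused arrays (CASQ2 without mated array 5, SP-infused array 4 or SP-infused array 5, and ITGA8 without mated array 8). Single arrays moved many estimates by over 1.5 times, up or down and with sign changes counted: 26 of 29 in mated against control arrays without mated array 4, 23 in SP-infused against control and 24 in mated against SP-infused arrays without SP-infused array 6. Some mated against control estimates were near 0, such as −0.002 for MYL6 and 0.006 for TAGLN, so small shifts were counted there. With equal array medians the members' median log2 fold change was 0.09 in mated against control arrays with 25 of 29 above 0, −0.12 in SP-infused against control and 0.23 in mated against SP-infused arrays, and with cyclic loess it was 0.02, −0.17 and 0.21. With array weights it was −0.01, −0.10 and 0.10. The median of all genes in mated against control arrays also rose with equal array medians, to 0.02 from −0.04 on the deposited values. Under the replicate block 0 members passed, and it changed no call. Arrays of different groups with the same number mostly did not pair: 9 of 24 such pairs had r above 0.1, from −0.40 to 0.502, and 4 of 24 arrays were closest to their own number. The pair at 0.502 was control array 3 with mated array 3, which had scores of 3.18 and 3.22 on the second component. What these arrays share beyond their number was not tested. With 8 arrays per group, the precision given with each interval assumes arrays of separate sows.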
